A study of Mus musculus with 6 samples.

Results

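Bone morphogenetic protein (BMP) ligands, the inhibitors that feed back on them and the inhibitor of DNA binding (ID) genes they switch on were followed in epithelial organoids of the mouse esophagus and stomach. The members were 10 of the 34298 gene names on the array, chosen by symbol: the ligands Bmp2, Bmp4 and Bmp7, the secreted antagonist Fst, the inhibitory SMADs Smad6 and Smad7, and the targets Id1, Id2, Id3 and Id4. They were covered by 12 of 55681 non-control probes, 1 per gene except Bmp4 and Id4, which had 2 each. The data are 6 single-color Agilent arrays, 3 of stomach and 3 of esophagus organoids, from mice 1, 2 and 4, and the labels give each mouse number 1 array of each tissue. The labels give no strain, sex or age for these mice. All organoids were at passage 0, and every sample is titled Control, with no further treatment named. The esophagus organoids were harvested on day 8, the stomach organoids of mice 1 and 2 on day 8 and those of mouse 4 on day 7.

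Per the study's methods, stomach organoids were grown from corpus glands and esophagus organoids from enzymatically dissociated tissue, both in Matrigel. Both media contained recombinant noggin, a secreted protein that binds BMP ligands, together with EGF, FGF-10, an inhibitor of the TGF-β receptor kinase, a ROCK inhibitor, nicotinamide, N-acetyl-cysteine and the B27 and N2 supplements. The stomach medium also held WNT3A and R-spondin1 conditioned media and gastrin, and the esophagus medium also held forskolin. Tissue and medium therefore changed together and cannot be told apart in any comparison given here. The arrays measured RNA made by the cells, and not the noggin that was added. In bulk organoid RNA, fewer cells of a type and less RNA per cell cannot be told apart either.

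BMP ligands bind a pair of type I and type II receptor kinases, which phosphorylate SMAD1, SMAD5 and SMAD9. These join SMAD4, enter the nucleus and switch on direct targets, of which the ID genes and the inhibitory SMADs are the most widely used readouts. ID proteins carry a helix-loop-helix domain without a DNA-binding region, so they hold E proteins away from DNA and are known to restrain differentiation. SMAD6 and SMAD7 switch the receptors off, and noggin, gremlin and follistatin hold ligands away from them outside the cell. In the gut tube, BMP signals are known to shape the boundary between squamous and columnar epithelium.

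Among the 6 members that passed the test, Id4 and Bmp7 were higher in the esophagus and Bmp4, Id2, Id1 and Smad6 were higher in the stomach. The strongest differences were those of Id4, whose stomach signal was near background so that its fold is uncertain, and of Bmp4, which was 10.9-fold higher in the stomach. Bmp2, Id3, Fst and Smad7 did not pass. The test was limma's moderated test on the log2 values (esophagus minus stomach, n = 3 per tissue), with Benjamini-Hochberg adjustment over all probes and a threshold of 0.05. Over the whole array, 16.2% of gene names had a called probe, in 7.88% with the esophagus higher and in 8.33% with the stomach higher. By probe, 2 and 4 of the 12 member probes were called in these directions, against 5.94% and 6.22% of all probes. Each of the 10 genes had a probe that stood clear of background on the 3 arrays of a tissue, and among gene names with such a brightest probe 26.6% were called. At the threshold of the study's methods, an unadjusted p under 0.05 and 1.5-fold, 9 of the 10 members passed, all but Smad7, against 23.6% of gene names. The median difference of the 10 brightest member probes was -1.19 on the log2 scale, against 0.03 over all gene names.

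**Figure D1:**
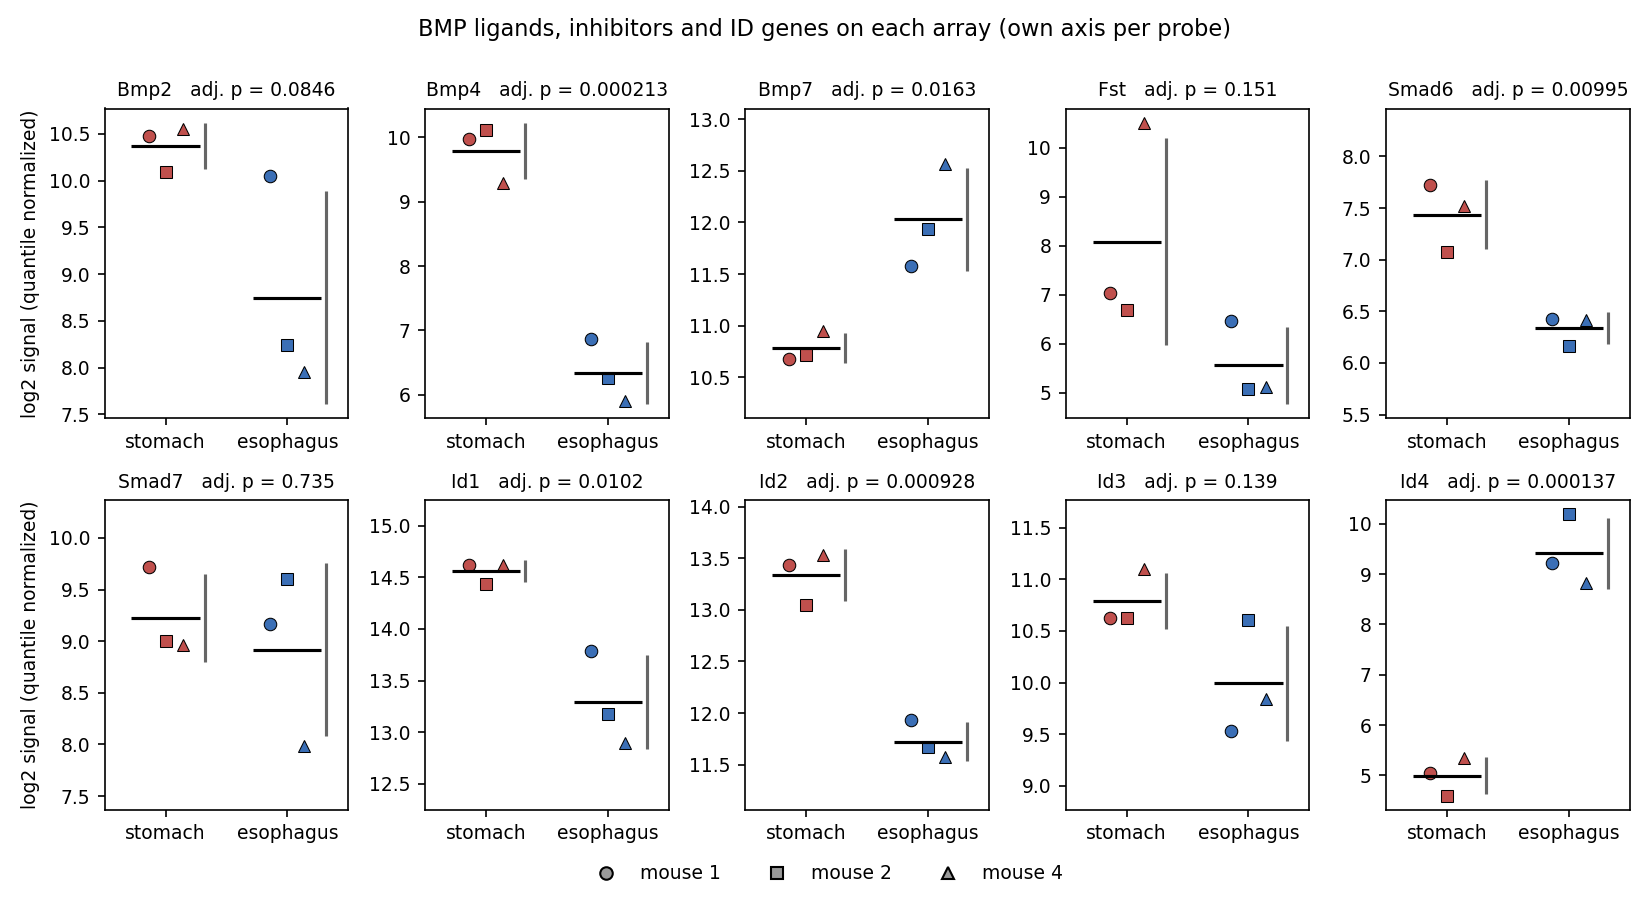
Log2 signal (quantile normalized by the authors) of the brightest probe of each member on each of the 6 arrays, with marker shape for the mouse, a horizontal line for the mean and a grey bar for 1 SD on each side (n = 3). Each panel has its own axis, because levels of different probes cannot be compared. The stomach and esophagus points of Bmp4, Id2 and Id4 are far apart, those of Smad7 overlap, and 1 stomach array stands above the others for Fst.

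The promoters of the ID genes that moved in opposite directions are shown here, since the ID genes share a name and a protein fold but not a direction in these organoids. They are the 250 bases before the start site from RefSeq (GRCm38.p6), matched by symbol for 5 of the 10 members and 4 of the 6 called ones. The Id2 sequence is chr12:25096093-25096342 on the minus strand, and the Id4 sequence is chr13:48260866-48261115 on the plus strand. Capitals mark GGCGCC, a GC-rich element bound by BMP-specific SMADs.
Id2: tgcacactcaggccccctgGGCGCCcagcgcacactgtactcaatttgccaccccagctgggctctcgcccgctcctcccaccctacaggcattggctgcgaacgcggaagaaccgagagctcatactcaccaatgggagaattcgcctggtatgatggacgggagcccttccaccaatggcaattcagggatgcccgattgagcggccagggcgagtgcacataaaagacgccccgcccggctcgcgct
Id4: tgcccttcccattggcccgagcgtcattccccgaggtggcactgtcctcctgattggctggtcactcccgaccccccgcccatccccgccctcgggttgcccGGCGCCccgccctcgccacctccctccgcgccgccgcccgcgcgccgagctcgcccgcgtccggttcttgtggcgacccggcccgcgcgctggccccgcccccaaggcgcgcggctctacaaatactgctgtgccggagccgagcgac

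GGCGCC, which reads the same on both strands, occurred 1 time in each of the windows, starting 231 bases before the Id2 start site and 148 bases before the Id4 start site. It was not in the windows of Bmp4, Smad6 and Id3, each of 300 bases (250 before and 50 after the start), and 11.9% of all 32851 promoters of that length held it. The shorter SMAD box, CAGAC on either strand (CAGAC or GTCTG), was absent from the windows of Bmp4, Id2, Id4 and Smad6 and occurred 2 times in that of Id3, against at least 1 match in 49.6% of all promoters. CANNTG, the E-box to which the partners of ID proteins bind, had 3 matches in the Bmp4 window, 1 in each of Id2 and Smad6 and none in Id3 and Id4, against a match in 72.3% of all promoters. No match overlapped another motif. Id2 and Id4, called in opposite directions, held the same counts of both SMAD motifs, 1 GGCGCC and no CAGAC. Each window holds only 300 bases, and a link between these motifs and the direction of a gene was not tested.

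The 3 ligand genes differed in direction. Bmp4, a ligand known for its role in foregut patterning, was higher in the stomach. Its probe at chr14:47003391-47003450 (minus strand, mm9, as the files give it) read 9.98, 10.11 and 9.30 on the stomach arrays of mice 1, 2 and 4 and 6.86, 6.26 and 5.90 on the esophagus arrays, in log2 signal. The groups were far apart: the lowest stomach array lay well above the highest esophagus array, and the esophagus arrays were still well above background. The difference was -3.45 ± 0.30 (SE; adjusted p = 0.000213, limma), and it was -3.12, -3.85 and -3.40 within mice 1, 2 and 4. A second Bmp4 probe, 133 bases away on the same strand, did not rise clearly above background on any of the 6 arrays, and its difference was 0.09 (adjusted p = 0.793). It gives no second reading of Bmp4, and averaging it in is the setting that brought the difference down to -1.68.

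Bmp7, a ligand of another BMP subgroup that uses the ACVR1 receptor, was higher in the esophagus. Its probe (chr2:172695203-172695262, minus strand) read 10.68, 10.72 and 10.95 in the stomach and 11.58, 11.94 and 12.57 in the esophagus. The stomach arrays lay close together, the esophagus arrays were spread over nearly as much as the difference itself, and the groups did not overlap. The difference was 1.25 ± 0.25 (adjusted p = 0.0163), a 2.37-fold higher level in the esophagus. It was no longer called without the stomach array of mouse 1 (adjusted p = 0.0782) or of mouse 2 (0.074), while the difference itself stayed at 1.2 and 1.21.

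Bmp2, the close relative of Bmp4, was not called. Its probe (chr2:133388260-133388319, plus strand) read 10.48, 10.09 and 10.55 in the stomach and 10.05, 8.24 and 7.95 in the esophagus. The groups did not overlap, as for 28.6% of all probes, but the esophagus array of mouse 1 sat beside the stomach arrays and far above the other esophagus arrays. The difference was -1.62 (95% interval -2.79 to -0.45; adjusted p = 0.0846). Without the esophagus array of mouse 1 it was -2.27 with an adjusted p of 0.000543, and with all arrays kept it just passed when dim probes were filtered out (adjusted p = 0.0496).

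Fst encodes follistatin, which binds activins and, less tightly, several BMPs. Its probe (chr13:115243565-115243624, minus strand) read 7.03, 6.69 and 10.51 in the stomach and 6.47, 5.08 and 5.12 in the esophagus, where only the array of mouse 1 was well above background. The high value came from the stomach array of mouse 4, the organoids harvested on day 7, and the other stomach arrays were close to the esophagus array of mouse 1. The difference was -2.52 (95% interval -4.73 to -0.31; adjusted p = 0.151), and it was -1.30 without the stomach array of mouse 4 and -3.21 without that of mouse 2, called in neither. On the stomach array of mouse 4 the immediate-early genes Atf3 (10.36, against 7.61 and 7.66) and Dusp1 (9.33, against 6.48 and 6.3) also stood above the other stomach arrays. So did Nr4a1 (12.07, against 10.49 and 10.64) and, by less, Fosb, Ier3 and Zfp36. Fos, Jun, Egr1, Ier2 and Btg2 were lower there than on either, Fos only slightly. The median of the immediate-early list was 10.36 on that array, against 8.76 and 8.54. Whether these genes or the day of harvest had a part in the Fst value was not tested.

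Of the inhibitory SMADs, 1 was called. Smad6, which preferentially blocks BMP receptors, was higher in the stomach. Its probe (chr9:63800980-63801039, minus strand) read 7.72, 7.07 and 7.52 in the stomach and 6.43, 6.16 and 6.42 in the esophagus. The groups did not overlap, and the esophagus arrays lay closer together (SD 0.15) than the stomach arrays (SD 0.34). The difference was -1.10 ± 0.20 (adjusted p = 0.00995), a 2.15-fold higher level in the stomach, and it was called under every alternative run, with adjusted p up to 0.0475.

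Smad7, which blocks BMP and TGF-β receptors alike, overlapped between the tissues. It read 9.72, 9.0 and 8.96 in the stomach and 9.17, 9.60 and 7.98 in the esophagus. The highest esophagus array exceeded 2 of the 3 stomach arrays. The difference was -0.31 (95% interval -1.27 to 0.65; adjusted p = 0.735). It turned to 0.16 without the esophagus array of mouse 4, the one array on a second slide, so no direction can be given.

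Of the 4 ID genes, Id1 and Id2 were higher in the stomach, Id4 was higher in the esophagus and Id3 was not called. Id1, the standard readout of BMP receptor activity, read 14.62, 14.44 and 14.62 in the stomach and 13.79, 13.18 and 12.90 in the esophagus (chr2:152563083-152563142, plus strand). The stomach arrays were nearly equal and all lay above the esophagus arrays, where the signal was still strong. The difference was -1.27 ± 0.23 (adjusted p = 0.0102), a 2.41-fold higher level in the stomach. The call was lost without the stomach array of mouse 1 (-1.24, adjusted p = 0.0542) and on background-subtracted signals after 75th percentile scaling (-0.99, adjusted p = 0.0929), a setting that changes the background correction and the scaling together and in which the median of all probes was 0.19, against 0.02.

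Id2, an ID gene widely expressed in epithelia, was also higher in the stomach. It read 13.43, 13.05 and 13.53 in the stomach and 11.93, 11.67 and 11.57 in the esophagus (chr12:25778904-25778963, minus strand). The gap between the groups was several times the spread within either. The difference was -1.62 ± 0.18 (adjusted p = 0.000928), a 3.07-fold higher level in the stomach, and it was called under every alternative run.

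Id3, whose direction was the same, did not pass. It read 10.63, 10.63 and 11.10 in the stomach and 9.53, 10.61 and 9.84 in the esophagus. The esophagus array of mouse 2 was level with the stomach arrays, and the difference within that mouse was -0.02, against -1.10 and -1.26 within mice 1 and 4. The pooled difference was -0.79 (95% interval -1.47 to -0.12; adjusted p = 0.139), and it was called without the esophagus array of mouse 2 (-1.10, adjusted p = 0.0268). That array also had the highest immediate-early signal, with a list median of 14.07 against 10.37 and 8.55 on the other esophagus arrays, and the highest esophagus values of Smad7 and Id4. Whether the immediate-early signal had a part in these values was not tested. The Id3 probe is shown because it joins separate stretches of the genome: its 60 bases lie over 175 bases of the plus strand, chr4:135700075-135700249 (mm9), so that 115 genomic bases are skipped.
Id3 probe: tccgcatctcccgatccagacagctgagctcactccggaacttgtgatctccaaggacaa

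Id4, an ID family member often described as opposing the others, was the member with the strongest difference. Its probe (chr13:48358668-48358727, plus strand) read 5.05, 4.60 and 5.34 in the stomach, where 1 of the 3 arrays was well above background, and 9.22, 10.19 and 8.82 in the esophagus, where all 3 were. The lowest esophagus array was far above the highest stomach array. The difference was 4.41 ± 0.36 (adjusted p = 0.000137), or 21.3-fold on these offset log2 values, and it was 4.17, 5.59 and 3.48 within mice 1, 2 and 4. The stomach level is close to background, so the size of the ratio depends on the background correction: it was 3.34 with a normexp offset of 50 and 6.64 on quantile-normalized background-subtracted signals. Averaging in the second probe of the gene gave 2.41, and Id4 was called under every alternative run. A second Id4 probe, 1482 bases downstream, did not rise clearly above background on any of the 6 arrays (0.41, adjusted p = 0.274).

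**Figure D2:**
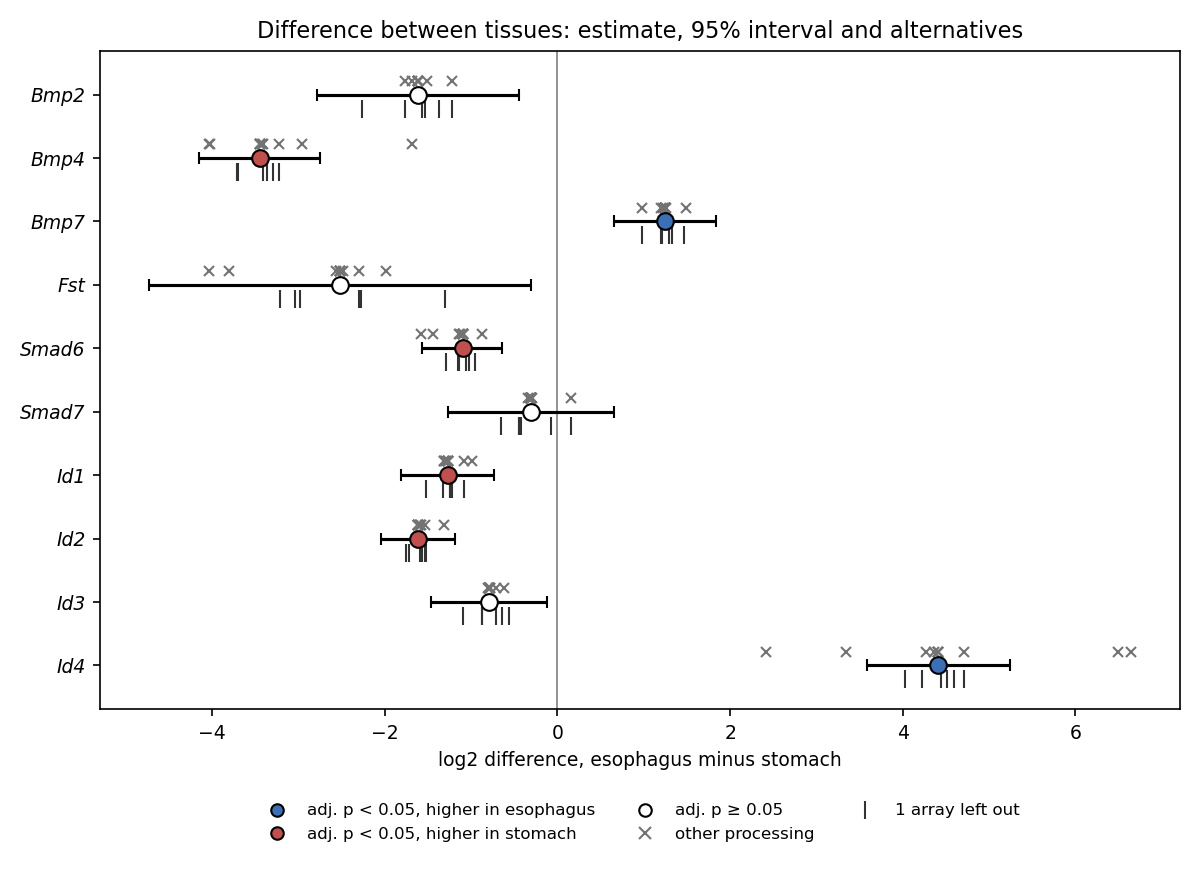
Log2 difference (esophagus minus stomach) of the brightest probe of each member, with its 95% interval from limma (n = 3 per tissue). Filled points passed an adjusted p of 0.05. Crosses above each point are other ways of processing the arrays and ticks below it are fits without 1 array. The intervals of Id4 and Bmp4 lie far from 0 on opposite sides, and Smad7 is the member whose alternatives fall on both sides of 0.

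The other genes of the pathway were taken from lists by role, which hold 100 genes on the array. By the brightest probe of each gene, the esophagus was higher for 15, the stomach for 15, and 70 were not called. Of the 100, 69 had a brightest probe clear of background on the 3 arrays of a tissue. The background for such calls was 14.9% of gene names, 7.15% in the direction of the esophagus and 7.7% in that of the stomach. The median difference of the 100 genes was 0.05.

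Among 17 other BMP and GDF ligands, 8 were above background in a tissue, and the calls were 2 for the esophagus and 4 for the stomach. The stomach calls include Gdf5 (adjusted p = 0.048), which is not among the 8. It was well above background on 2 stomach arrays and no esophagus array, with a signal at least 1.42-fold higher. Bmp8b had a stomach signal at least 18.2-fold higher, and there it read 9.63, 9.29 and 9.22. On the esophagus arrays it was not well above background, and the bound takes, on each of them, the higher of the probe's own signal and the dimmest signal called above background (adjusted p = 6.21e-06). Bmp6, of the same subgroup as Bmp7, had an esophagus signal at least 5.81-fold higher, with 8.99, 7.03 and 6.76, and was not well above background in the stomach (adjusted p = 0.0178). Its highest array was that of mouse 1, which was also the highest esophagus array for Bmp2, and without it the fitted log2 difference was 1.84 rather than 2.54, still called (adjusted p = 0.000713). The call was lost without the stomach array of mouse 1 (adjusted p = 0.0812) or mouse 2 (0.0714) and with a normexp offset of 50 (0.0822). Bmp3 was higher in the esophagus by 2.04 ± 0.31 (adjusted p = 0.00443). Like Bmp4 and Bmp7, these ligands were called in both directions.

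The TGF-β, activin and nodal ligands, which act through other SMADs, numbered 11, with 1 call for the esophagus and 3 for the stomach. Tgfb1 was higher in the esophagus by 2.57 ± 0.20 (adjusted p = 0.000115). Tgfb3 was higher in the stomach, with a difference of -4.32 ± 0.36 (adjusted p = 0.000164). Inhbb, the βB subunit of activin, which follistatin binds, was also higher in the stomach (-3.02 ± 0.51, adjusted p = 0.00705). Its lowest stomach array, 7.97 against 9.92 and 9.91, was that of mouse 4, the array with the high Fst value, and without it the difference of Inhbb was -3.67 (adjusted p = 0.000139).

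The BMP receptors gave no call in their brightest probes. Bmpr1a, the main type I receptor for BMP2 and BMP4, read 11.37, 11.14 and 11.60 in the stomach and 11.25, 11.20 and 11.17 in the esophagus, and its difference was -0.17 (adjusted p = 0.623). Bmpr2, the type II partner, differed by 0.24 (95% interval up to 0.74; adjusted p = 0.592), and Bmpr1b was not well above background in either tissue. Acvr1, the type I receptor used by BMP7, read 10.78, 10.79 and 10.80 in the stomach and 11.47, 11.87 and 11.06 in the esophagus. The groups did not overlap, but the difference of 0.68 did not pass (adjusted p = 0.0865), while a second, dimmer Acvr1 probe just did (1.01, adjusted p = 0.0489). Without the esophagus array of mouse 4 the brightest probe passed too (0.88, adjusted p = 0.0218). Of 12 type I and type II receptors, 2 were called, both higher in the stomach and neither of them a BMP receptor. Tgfbr2, the TGF-β type II receptor, differed by -2.08 ± 0.31 (adjusted p = 0.00365), and Acvr1c had a stomach signal at least 2.22-fold higher (adjusted p = 0.0281), a call that 4 of the 6 fits without 1 array lost (without either the esophagus array of mouse 2 or 4 or the stomach array of mouse 1 or 2, adjusted p = 0.072, 0.0741, 0.102 and 0.118), as did a normexp offset of 50 (0.0565).

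Of 6 co-receptors and pseudoreceptors, 1 was called. Tgfbr3, betaglycan, which presents TGF-β2 and binds several BMPs, had an esophagus signal at least 11.8-fold higher (adjusted p = 5.2e-05), since no stomach array was clear of background. Among 22 secreted antagonists and modulators other than Fst, 12 were above background in a tissue, with 4 calls for the esophagus and 2 for the stomach. Sostdc1, a BMP and WNT antagonist, read 9.02, 7.16 and 6.76 in the esophagus and was at least 7.59-fold higher there (adjusted p = 0.00702; 0.0584 with a normexp offset of 50). Without the esophagus array of mouse 1, its highest, the fitted log2 difference of Sostdc1 was 2.45 rather than 3.13 (adjusted p = 0.000516). Bmp1, a protease that cleaves the antagonist chordin and is not itself a BMP ligand, was higher in the esophagus by 2.92 ± 0.19 (adjusted p = 4.77e-05). A second Bmp1 probe gave 2.15, and the other gave 0.58 and did not pass (adjusted p = 0.0527). Nog, the gene of the antagonist that both media supplied as protein, was well above background on 2 stomach arrays and no esophagus array, at 5.53, 5.84 and 4.72 in the stomach and 5.58, 5.15 and 5.13 in the esophagus. Grem1 was nowhere well above background.

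Inside the cell, 2 of 6 receptor-regulated and common SMADs were called, both for the esophagus. Smad5, which carries the BMP signal, read 11.24, 11.01 and 10.92 in the stomach and 11.89, 11.81 and 12 in the esophagus, a difference of 0.85 ± 0.15 (adjusted p = 0.00929). Smad2, which carries the TGF-β and activin signal, differed by 0.77 (adjusted p = 0.0188; 0.0513 with the mouse as a replicate block). Smad1 (0.53, adjusted p = 0.223; 0.78 and 0.0378 without the stomach array of mouse 4) and Smad4 (0.26, adjusted p = 0.571) did not pass, and Smad9 was nowhere well above background. Over the alternatives the Smad1 difference ranged from 0.11 to 0.78, and dimmer probes of Smad1 differed by -0.15 and -0.04 and were not called. The Smad5 call was lost on background-subtracted signals scaled to the 75th percentile (1.09, adjusted p = 0.0502). Among 9 intracellular regulators, Zfyve9, an anchor that brings SMAD2 to the receptor, was higher in the esophagus by 1.17 (adjusted p = 0.0101), Ski, a SMAD corepressor, was higher there by 0.99 (adjusted p = 0.0489), and Ltbp1, which stores latent TGF-β and was kept in this list, was higher in the stomach (-1.63, adjusted p = 0.00909; 0.0815 on quantile-normalized background-subtracted signals). The calls of Ski and Smad2 were lost under 11 and 6 of 17 alternatives, and that of Zfyve9 without the stomach array of mouse 1 (adjusted p = 0.0561) or mouse 2 (0.0509).

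Other targets, like the ID genes, were called in both directions. Of 9 other BMP-responsive genes, 4 were above background in a tissue. Msx2 and Msx1, homeobox targets of BMP signals, were higher in the esophagus by 1.82 (adjusted p = 0.00198) and 1.63 (adjusted p = 0.00393). The probes of Msx2 and Msx1 were each well above background on 1 of the 3 stomach arrays, so the size of either difference is uncertain. Over the alternatives it ranged from 1.11 to 3.4 for Msx2 and from 1.11 to 2.66 for Msx1, and both stayed called. Atoh8 had a stomach signal at least 4.06-fold higher (adjusted p = 0.000663). Of 7 TGF-β-responsive genes, Tgfbi, a secreted matrix protein, had an esophagus signal at least 485-fold higher (adjusted p = 3.69e-07). Ccn2, a matrix-associated growth factor modulator, was higher in the stomach (-7.86 ± 0.49, adjusted p = 3.23e-05), and Pmepa1, a feedback inhibitor of the TGF-β pathway, was too (-1.70, adjusted p = 0.0165). The Ccn2 probe was well above background on 2 of the 3 esophagus arrays, so the size of its difference is uncertain. Over the alternatives it ranged from -9.26 to -7.12 and stayed called. The call of Pmepa1 was lost without the esophagus array of mouse 2 (adjusted p = 0.0627) or the stomach array of mouse 1 (0.0806) or 2 (0.0681) and on quantile-normalized background-subtracted signals (0.0823). None of the 4 listed partners of ID proteins was called. The E protein genes Tcf3, Tcf4 and Tcf12 differed by 0.37 (adjusted p = 0.246), -0.25 (0.53) and 0.31 (0.594).

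**Figure D3:**
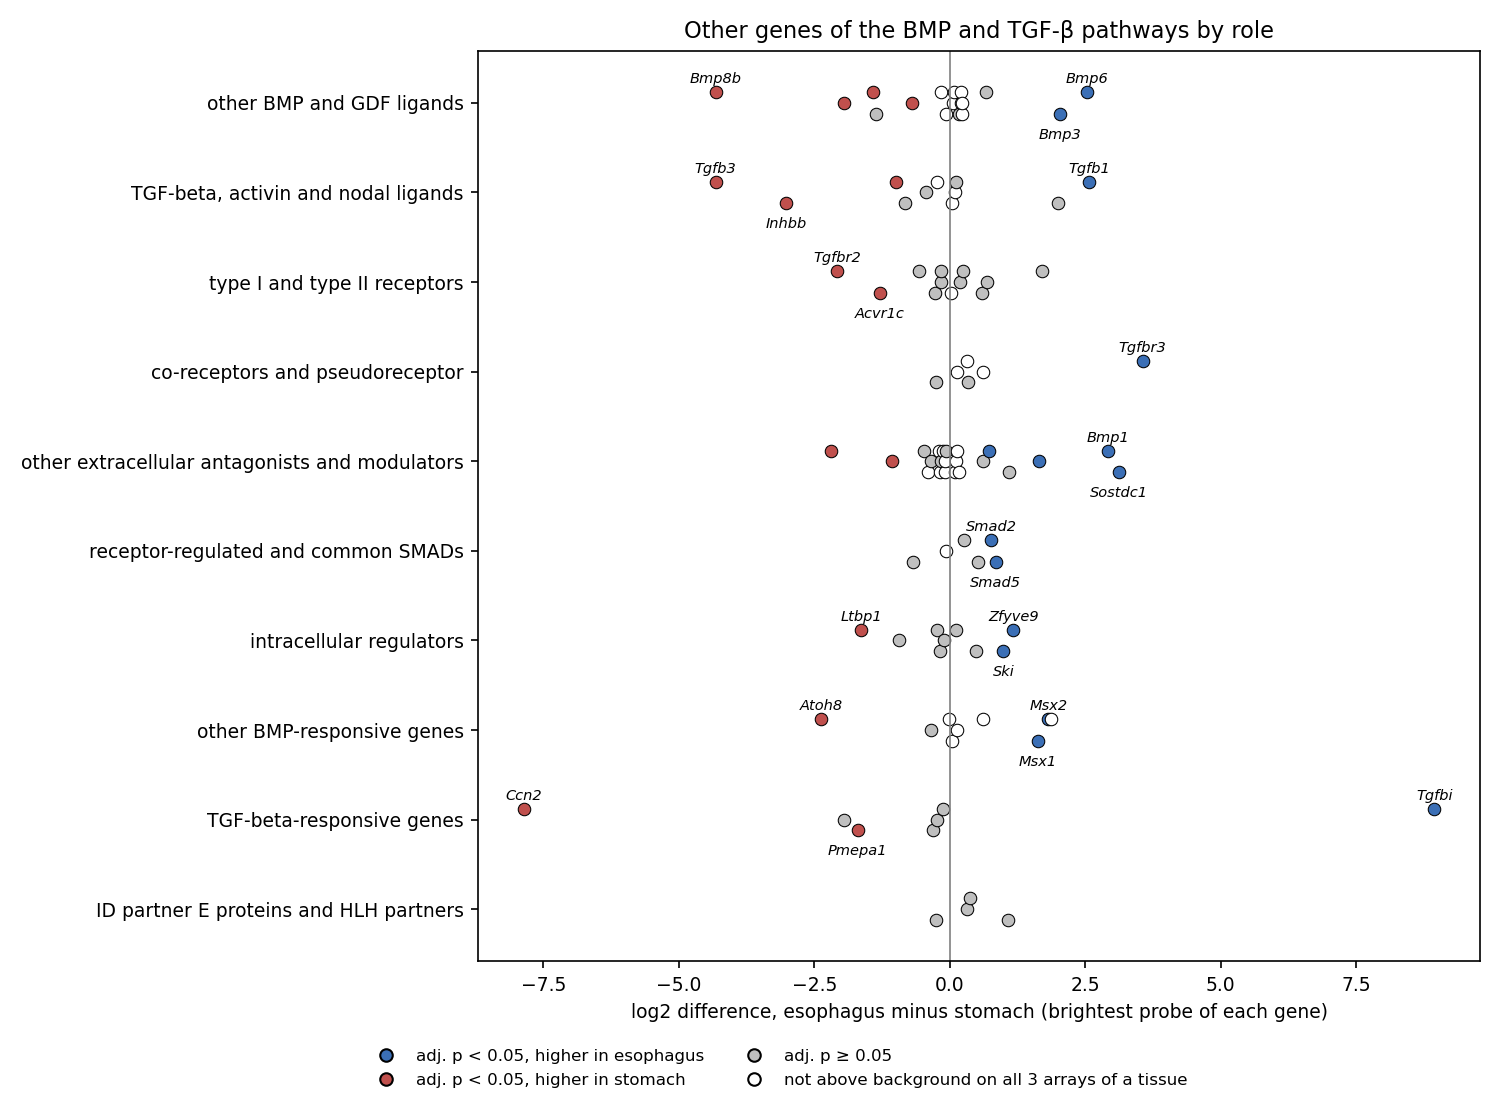
Log2 difference (esophagus minus stomach) of the brightest probe of each of the 100 other pathway genes, in rows by role. Blue and red points passed an adjusted p of 0.05, whatever their signal over background, and grey and white points did not. White points were also not above background on all 3 arrays of either tissue. Every role with more than 2 calls has calls on both sides of 0, and the row of ID partners has none.

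Id1 and Bmp7 were followed further because their probes gave the strongest signal among the ID genes and the ligands, which says nothing of the order of their RNA levels. The genes with the profiles most like theirs were found by the Euclidean distance between mean-centered log2 values over the 6 arrays. Candidates were brightest probes well above background on all 6 arrays, 15634 before most entries named only by a locus or accession were left out. For Id1 the nearest genes were Trim46, 2610318M16Rik, Spata6, Ypel2 and Ezr, at distances of 0.25 to 0.315 log2 units. Ezr encodes ezrin, a linker between membrane and actin, and read 14.21, 13.95 and 13.88 in the stomach and 13.28, 12.81 and 12.56 in the esophagus. For Bmp7 they were Nup35, LF195009, Tipin and Tshz1, at 0.153 to 0.259. Tipin, a component of the replication fork protection complex, read 11.79, 11.70 and 12.08 in the stomach and 12.60, 12.83 and 13.62 in the esophagus.

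**Figure D4:**
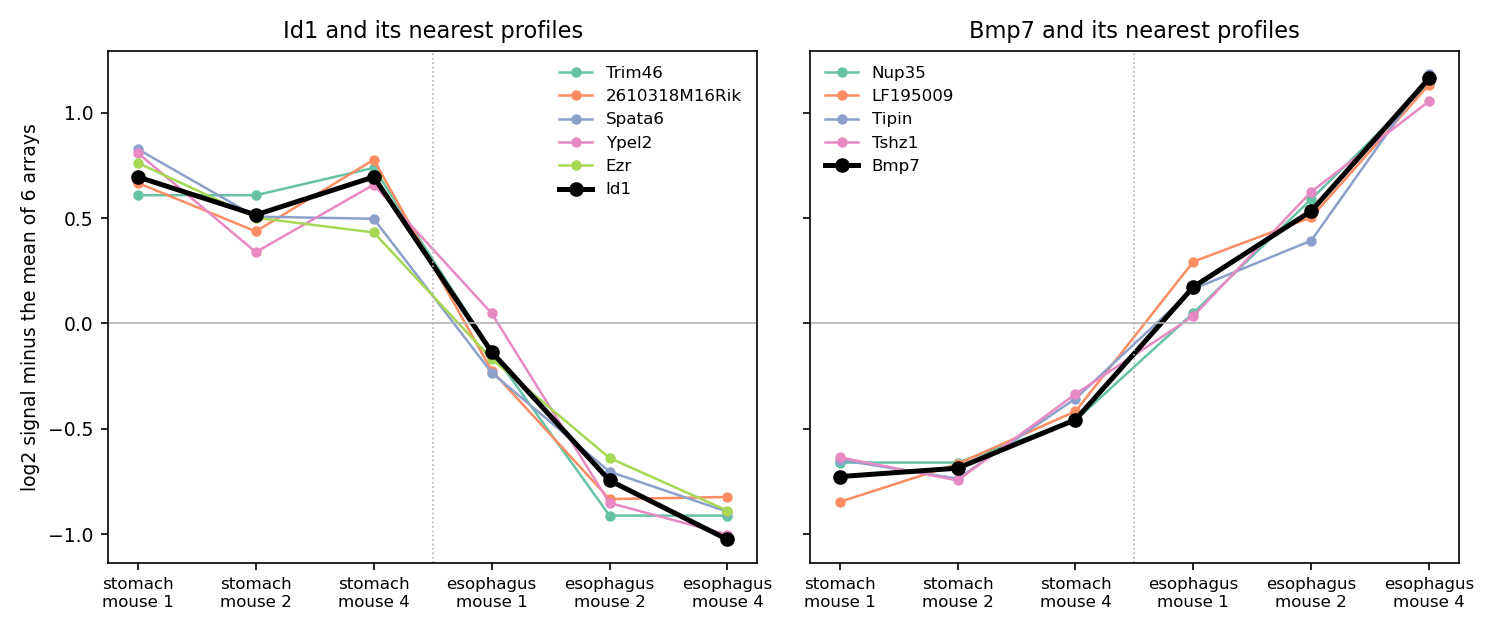
Log2 signal minus the mean of the 6 arrays for Id1 and Bmp7 (black) and for the genes named as nearest to each (colors), with the arrays ordered by tissue and mouse. The stomach arrays of Id1 and its neighbors lie above 0 and those of Bmp7 and its neighbors below it, and the esophagus array of mouse 4 is the highest for Bmp7.

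The tissue labels were checked against marker genes. All 11 columnar markers were called higher in the stomach and 9 of 10 squamous markers higher in the esophagus. The exception was Trp63, whose brightest probe was lower in the esophagus (-1.22, adjusted p = 0.0249) while its other 3 probes, clear of background on no stomach array, gave an esophagus signal higher by at least 49.6-fold. Of the fibroblast markers, 1 of 10 (Fbln1) was above background in a tissue and none was called; Pdgfra, Lum and Postn were nowhere well above background, and the summed signal of the list was 2374 to 3525 in the stomach and 2907 to 4612 in the esophagus. Of 6 smooth muscle, 6 endothelial and 7 immune markers, 1, 2 and 3 were above background in a tissue, and Itgam was the only one called (-2.62 by its brightest probe, adjusted p = 0.000662; its other 2 probes were nowhere well above background). Between 45.5% and 51.1% of spots were well above background on each array and none was saturated. The squamous differentiation list had a median of 14.44, 15.19 and 10.46 on the esophagus arrays of mice 1, 2 and 4, so the array of mouse 4, which was lowest of the 3 for Bmp2, Bmp4, Id1, Id2, Id4 and Smad7 and highest for Bmp7, was also the lowest for that list. The cell division list had medians of 11.95, 12.27 and 12.95 on these arrays and of 11.78, 11.85 and 12.69 on the stomach arrays, highest in mouse 4 of each tissue, as Bmp7 was. The part of these differences in the member values was not tested.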

How the data were processed

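RNA of 3 stomach and 3 esophagus organoid cultures was hybridized to single-color Agilent arrays. Scanned spots were quantified by the authors in Agilent Feature Extraction (version 11.5.1.1, per the submitters' processing notes). The deposited scanner files hold spot and local background intensity values with flags. The deposited log2 values are the authors' own, background corrected and quantile normalized. They could be rebuilt from the median intensities (normexp, offset 15, then quantiles) with a median absolute difference of 0.00433, and their 2029 empty cells were outlier-marked spots. The offset compresses the folds of dim genes.

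In R 4.3.3, spots of one probe were averaged, and lmFit and eBayes of limma 3.58.1 compared the tissues over 55681 non-control probes without a block, with Benjamini-Hochberg adjustment (adjusted p under 0.05). The code was tested on simulated data. A gene was described by its brightest probe. Probes above background on no array of a tissue are given as bounds. Replicates were separate mice, and their number limits the precision; an exact permutation of 3 against 3 arrays cannot go below p = 0.1.

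The pairing rests on the mouse number that the labels give both tissues. The values show no shared deviation: arrays of one number correlated with r = 0.025, 0.0119 and -0.00787, against -0.0726 to 0.0405 between numbers. The named genes were all members, 13 core pathway genes and, per list, the 3 called genes above background with the strongest difference; 2 genes are not reported here. Members and lists were chosen with earlier results of these data known. Coordinates are those of the scanner files (mm9). Alternatives covered background correction, scaling, outlier and dim spots, probe averaging, variance model, mouse and slide blocks, the methods' threshold (p under 0.05 and 1.5-fold) and leaving out each array.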

Additional observations from a re-analysis of the deposited data

How the results depend on the processing

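Over 200 alternative values of the 12 member probes, 186 kept their direction and their side of the threshold, 5 lost a call, 7 gained one and 2 changed sign. Bmp4, Id2, Id4 and Smad6 were called in each alternative. The calls of Bmp7 (adjusted p = 0.0625 for quantile-normalized background-subtracted signals) and Id1 were lost in some, as given with their values, and the causes were not tested. Smad7 became 0.16 with the slide as a block and without esophagus replicate 4, which is the same comparison, because that slide held 1 array; with 1 array left out it ranged from -0.65 to 0.16. With the mouse as a replicate block, all 6 called members kept their call and none was gained, and of the other named genes Smad2 lost its call. The members called higher in the esophagus numbered 1 rather than 2 for quantile-normalized background-subtracted signals and 1 to 2 with 1 array left out. Those higher in the stomach numbered 7 rather than 4 with the methods' threshold, which adds Bmp2, Id3 and Fst, and 3 to 5 with 1 array left out; Fst was also called on background-subtracted signals with 75th percentile scaling (-4.04, adjusted p = 0.0435) and Bmp2 with the filter on dim probes (adjusted p = 0.0496).

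Of 527 alternatives for 31 other named genes, 485 kept direction and side, 35 lost a call, 4 gained one and 3 changed sign: Bmpr1a (0.05) and Tcf4 (0.07) on background-subtracted signals with 75th percentile scaling, and Tcf12 (-0.03) with probes averaged. Pathway genes called ranged from 10 to 22 in the esophagus and 11 to 17 in the stomach. Over all gene names, 4179 rather than 2703 were higher in the esophagus with the methods' threshold, and over all probes 5168 rather than 3307; with 1 array left out these were 1461 to 2880 and 1794 to 3500, and 2297 to 3915 probes, against 3463, were higher in the stomach. For genes dim in one tissue the fitted difference grew on background-subtracted signals with 75th percentile scaling and shrank with a normexp offset of 50, as for Bmp8b (-6.78 and -3.28, against -4.32) and Tgfbi (12.28 and 7.7, against 8.94). Signal over background limits Id4 in the stomach, Fst in the esophagus and the second probes of Bmp4 and Id4.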
